A study of Mus musculus with 12 samples.

Results

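The genes described here are 35 genes of yolk sac endoderm and of lipoprotein assembly, chosen by their symbols, with no measured value in the rule. The list was nevertheless chosen with earlier results of these data known. Of these 35 genes, 34 had a row in a table of 23284 genes, and Rhox5 was not analysed here. The count filter kept 33 of them among 14412 genes tested, and the liver gene Alb was the 1 gene it left out. RNA was measured by sequencing of polyadenylated RNA in 12 individual whole mouse embryos (strain background C57BL/6 x 129Sv) at 9.0 days post coitum, with about 9 to 10 somites. The labels give 8 embryos, called CDKO here as in their titles, as null for Tgif1 and Tgif2, which encode related homeodomain repressors of transcription, and 4 embryos as wild type (WT). The series text calls the mutants conditional. No Cre driver or allele is named in the sources used here, so it is not known whether yolk sac endoderm carried the deletion, and neither is it given whether yolk sac was left attached at dissection. Libraries held 16802367 to 21346245 counts.

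The visceral endoderm of the yolk sac lies between the maternal supply and the embryo before the placenta works, and does much of what the liver does later. Its cells take up maternal proteins at their apical surface through the receptors Lrp2 (megalin) and Cubn (cubilin), with the partner Amn (amnionless) and the adaptor Dab2. They load lipid onto Apob with the transfer protein encoded by Mttp, secrete it as lipoprotein particles with smaller apolipoproteins, and secrete carrier proteins such as Afp (alpha-fetoprotein), Ttr (transthyretin), Rbp4 (retinol-binding protein) and Trf (transferrin). FOXA transcription factors are known regulators of such genes in endoderm and liver.

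RefSeq start sites on GRCm38.p6 gave promoter windows, from 250 bases before to 50 bases after a start, for 31 of the 35 genes. The letters TGTTTGC, of the type that FOXA factors bind, were found on either strand (the other strand reads GCAAACA) in 6 of these 31 genes, or 19.4%, against 5.76% of all 27025 genes with a window. The windows of Afp and its neighbour Alb are shown because both hold the motif while their levels, given below, were very different. Capitals mark the match. Their places are chr5:90490464-90490763 on the plus strand for Afp and chr5:90460620-90460919 on the plus strand for Alb.
Afp: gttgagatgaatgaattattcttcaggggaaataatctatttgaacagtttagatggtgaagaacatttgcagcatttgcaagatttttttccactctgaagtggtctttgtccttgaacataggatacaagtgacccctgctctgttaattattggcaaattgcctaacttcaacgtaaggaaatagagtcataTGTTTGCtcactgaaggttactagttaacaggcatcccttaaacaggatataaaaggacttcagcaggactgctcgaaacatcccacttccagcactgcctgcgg
Alb: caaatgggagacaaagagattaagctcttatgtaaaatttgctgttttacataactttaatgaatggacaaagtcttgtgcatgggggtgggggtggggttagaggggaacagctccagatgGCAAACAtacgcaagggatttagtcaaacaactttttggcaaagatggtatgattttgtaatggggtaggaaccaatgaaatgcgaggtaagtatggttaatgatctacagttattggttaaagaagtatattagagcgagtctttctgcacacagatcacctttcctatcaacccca
A match describes these letters only. It is no measure of binding, and Alb, with the motif, was near 0 in every embryo.

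Between embryos of the same genotype the yolk sac genes varied widely and together, and between genotypes few differed by more than that spread. A change was called at an adjusted p under 0.05 (edgeR quasi-likelihood F test, Benjamini-Hochberg over all genes tested). Tdo2 was the 1 member called higher in CDKO and 0 members were called lower, so 3.03% of the 33 tested were called, against 51.5% of all 14412 genes (26.6% higher and 24.9% lower). The median log2 fold change of CDKO over WT was 0.22 over the members and 0.01 over all genes tested, with 23 members above and 10 below 0. For 0 of the 33 members did the CDKO and WT levels stand apart without overlap, against 34.7% of all genes tested. The SE of a member's log2 fold change had a median of 0.47, against 0.09 over all genes, so a difference between genotypes had to be larger among these genes to be called. At an unadjusted p under 0.05 there were 3 members, Tdo2, Spp2 and Habp2, all higher. DESeq2 called 3 members, all higher, and limma-voom with sample quality weights called 2 higher and 4 lower, the lower being Apoa4, Apoc2, Lrp2 and Slc2a2. The SD of log2 CPM, counts scaled to a common library total, had a median of 0.80 over members in CDKO and 0.80 in WT, against 0.16 in CDKO and 0.10 in WT over all genes tested. In whole embryos, fewer yolk sac cells and less RNA per cell cannot be told apart.

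The order of the embryos was much alike for most members, with Vtn and Ambp as exceptions. CDKO 1, CDKO 4 and CDKO 6 were the highest 3 of the 8 CDKO embryos for 31 of 33 members. The lowest CDKO embryo was CDKO 8 for 18 members, CDKO 2 for 13 and CDKO 5 for 2. WT 1 was the lowest of the 4 WT embryos for all 33 tested members. The summed level of the members was 5229, 1484, 2105, 4086, 1761, 4076, 2051 and 1390 CPM in CDKO 1 to CDKO 8, against 1253, 2876, 2749 and 3662 CPM in WT 1 to WT 4. CDKO 1, 4 and 6 thus lay above every WT embryo, and CDKO 2, 3, 5, 7 and 8 lay between WT 1 and the other WT embryos. For a member, the highest CDKO embryo exceeded the lowest by 2.04- to 12.1-fold (median 4.56), and the highest WT embryo exceeded the lowest by 1.36- to 6.81-fold (median 3.47). As a description, log2 CPM of a member correlated with the mean of the other members at r of at least 0.9 for 27 members over the 8 CDKO embryos and for 21 over all 12 embryos, points that share library and composition.

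**Figure D1:**
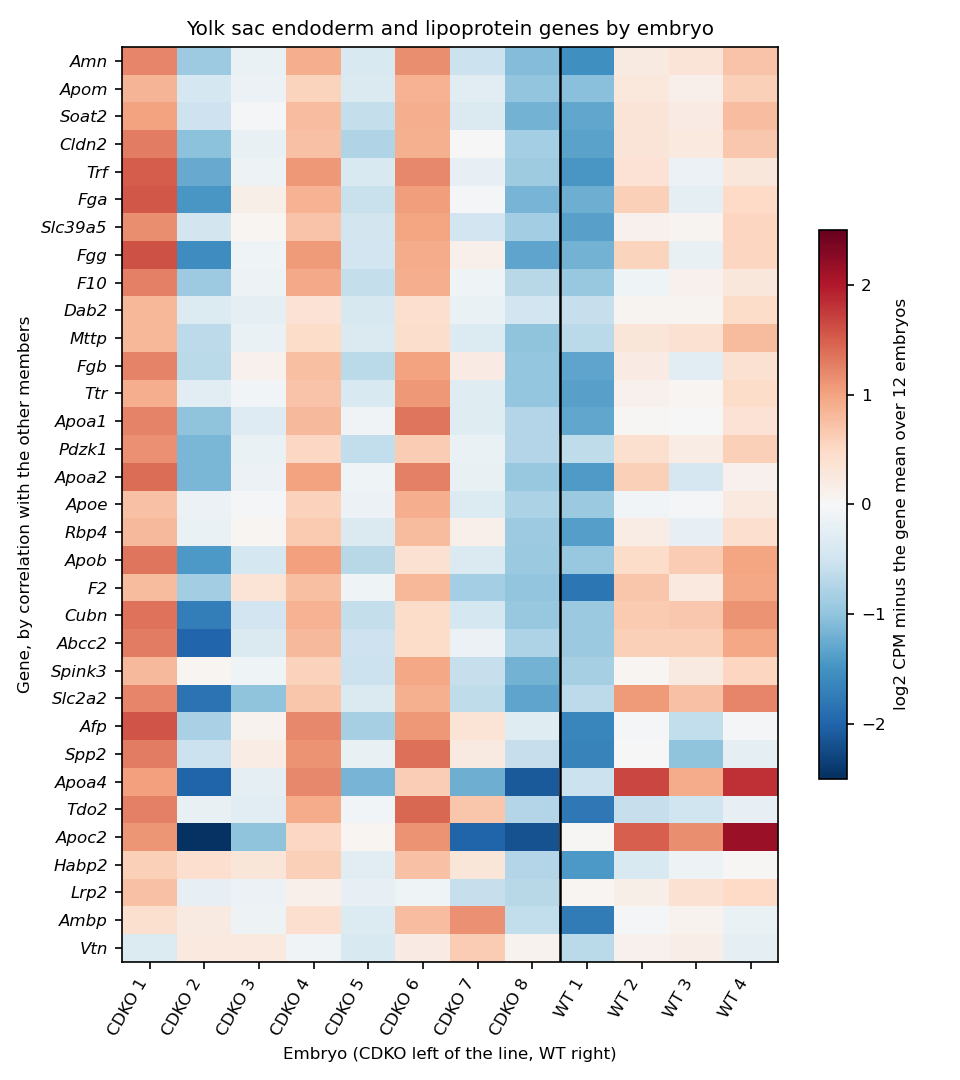
Each row is a tested member and each column an embryo, with CDKO left of the line and WT right. Colour is log2 CPM minus the gene's mean over the 12 embryos, and rows are ordered by their correlation with the other members. CDKO 1, 4 and 6 are high and WT 1 low down most of the plot, while Vtn in the lowest row does not follow.

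Among the secreted carrier proteins, Afp, an albumin-like protein of the fetal circulation encoded on chromosome 5, stood at a lowest level of 159, a median of 330 and a highest of 841 CPM in CDKO, against 91.2, 272, 185 and 273 CPM in WT 1 to 4. CDKO 1, 3, 4, 6 and 7 lay above every WT embryo, and the other 3 lay within the WT range. The log2 fold change was 1.0 with an SE of 0.54, and the difference did not pass the test (adjusted p = 0.144, edgeR). Alb, which encodes albumin beside Afp, had 22 counts in the 8 CDKO libraries together and 1 count in the 4 WT libraries, and its highest level was 0.757 CPM in CDKO 7.

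Ttr, the carrier of thyroid hormone and of retinol-binding protein, stood at 75.3, 131 and 311 CPM (lowest, median and highest) in CDKO, against 57.4, 157, 152 and 202 CPM in WT 1 to 4. Rbp4, which carries retinol, stood at 67.6, 135 and 222 CPM in CDKO, against 49, 145, 110 and 170 CPM in WT. Trf, the iron carrier, stood at 24, 51.5 and 165 CPM in CDKO, against 21, 73.8, 52.2 and 70.6 CPM in WT. For each of these carriers CDKO 1, 4 and 6 lay above every WT embryo and the rest lay inside the WT range. The log2 fold changes were 0.29 for Ttr, 0.33 for Rbp4 and 0.51 for Trf, with SEs of 0.44, 0.39 and 0.58, and none passed (adjusted p = 0.608, 0.503 and 0.49, edgeR). Ambp, the precursor of alpha-1-microglobulin, was at 3.43 ± 1.39 CPM in CDKO (SD, n = 8) and 2.19 ± 0.937 CPM in WT (SD, n = 4), and Spp2, a secreted phosphoprotein made by the liver, at 14.6 ± 7.96 CPM in CDKO and 6.6 ± 3.11 CPM in WT, where the difference in Spp2 narrowly missed the threshold (log2 fold change 1.13, SE 0.47, adjusted p = 0.0646, edgeR).

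Among the apolipoproteins, Apob, the scaffold of the particle, stood at 133, 273 and 908 CPM in CDKO, against 187, 497, 559 and 709 CPM in WT 1 to 4. Apoa1, the main protein of high-density lipoprotein, stood at 75, 131 and 381 CPM in CDKO, against 60.9, 152, 148 and 193 CPM in WT. Apoe, a ligand of lipoprotein receptors, stood at 166, 271 and 543 CPM in CDKO, against 152, 275, 284 and 342 CPM in WT. The CDKO range reached beyond the WT range at the top for all of these, and below it for Apob in CDKO 2. Their log2 fold changes were -0.29, 0.48 and 0.33 with SEs of 0.55, 0.52 and 0.33, and none passed (adjusted p = 0.687, 0.471 and 0.438, edgeR).

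Apoa4 and Apoc2 had the lowest fold changes of the list. Apoa4, a chylomicron protein, stood at 59.8, 7.43, 25, 67.9, 13.2, 45, 12.7 and 6.92 CPM in CDKO 1 to 8, against 20.4, 93.6, 56.4 and 105 CPM in WT 1 to 4. Apoc2, the cofactor that activates lipoprotein lipase, stood at 58.4, 4.9, 13.6, 38.9, 28, 59.3, 6.75 and 6.03 CPM in CDKO 1 to 8, against 27.7, 76.5, 61 and 122 CPM in WT 1 to 4. For each gene 4 CDKO embryos lay below every WT embryo and 0 lay above. On the log2 scale Apoa4 was at -1.21 with an SE of 0.67 and Apoc2 at -1.42 with an SE of 0.70, CDKO over WT, and neither passed (adjusted p = 0.158 and 0.115, edgeR). Apoa2 and Apom, both proteins of high-density lipoprotein, averaged 14 ± 9.06 and 41.9 ± 19.5 CPM in CDKO (SD, n = 8), against 9.69 ± 5.05 and 40.7 ± 16.4 CPM in WT (SD, n = 4). Mttp, which loads lipid onto Apob, averaged 47.8 ± 21 CPM in CDKO and 57.8 ± 21.5 CPM in WT, and Soat2, which esterifies cholesterol, 16 ± 8.67 CPM in CDKO and 15.8 ± 7.51 CPM in WT. None of these 4 passed the test.

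**Figure D2:**
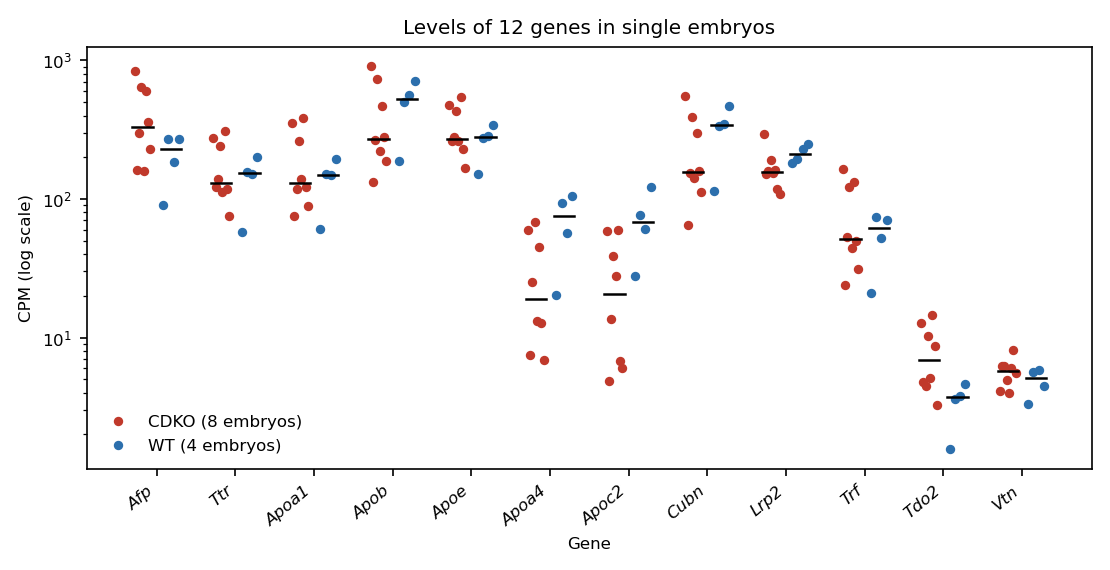
CPM on a log axis for 12 members, with 1 point per embryo, CDKO left of WT for each gene, and a line at the median. The groups overlap for every gene shown. CDKO points reach below all WT points for Apoa4, Apoc2, Apob, Cubn and Lrp2. They reach above all WT points for every gene shown except Apoa4 and Apoc2.

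The uptake genes gave the same picture. Cubn stood at 65.1, 157 and 550 CPM in CDKO, against 114, 338, 345 and 470 CPM in WT 1 to 4. Its partner Amn stood at 12.6, 22.2 and 62.3 CPM in CDKO, against 9.27, 31.3, 33.5 and 43.8 CPM in WT, and Dab2 at 144, 173 and 355 CPM in CDKO, against 134, 209, 211 and 276 CPM in WT. CDKO 1 was highest of all embryos for each of these, and CDKO 2 (Cubn) or CDKO 8 (Amn, Dab2) was lowest of its group. The log2 fold changes of Cubn, Amn and Dab2 were -0.44, 0.15 and 0.02, and none passed (adjusted p = 0.549, 0.842 and 0.967, edgeR). Lrp2, which is also used by neural tube epithelium, was the least variable uptake gene in WT, at 183, 194, 228 and 248 CPM in WT 1 to 4. In CDKO it stood at 109, 156 and 294 CPM, with 6 of 8 embryos below every WT embryo and CDKO 1 above them, and did not pass (log2 fold change -0.35, SE 0.23, adjusted p = 0.219, edgeR). Its correlation with the mean of the other members, 0.77 over the 8 CDKO embryos, was below that of Cubn at 0.95.

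Transporters and surface proteins of the epithelium varied in step with the uptake genes. Abcc2, an exporter of organic anions, averaged 6.16 ± 4 CPM in CDKO and 7.74 ± 3.4 CPM in WT, and Slc2a2, the glucose transporter GLUT2, 15.8 ± 11.6 CPM in CDKO and 25.3 ± 11.4 CPM in WT. Slc39a5, a zinc transporter, averaged 20.8 ± 11.4 CPM in CDKO and 17.3 ± 7.69 CPM in WT. The scaffold gene Pdzk1 averaged 28.5 ± 15.7 CPM in CDKO and 30.2 ± 9.66 CPM in WT, and Cldn2, a claudin that forms channels for cations, 21.4 ± 12.9 CPM in CDKO and 20 ± 9.14 CPM in WT (SD, n = 8 and n = 4). None of these 5 passed.

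Coagulation genes are expressed by yolk sac endoderm as well as liver. Fga, Fgb and Fgg, the chains of fibrinogen, stood at 3.19, 8.99 and 25.4 CPM, at 7.31, 15.8 and 33.7 CPM and at 2.43, 7.23 and 21.5 CPM in CDKO (lowest, median and highest). In WT 1 to 4 they stood at 3.71, 13.1, 7.43 and 12.2 CPM for Fga, at 5.68, 16.3, 11.9 and 18.5 CPM for Fgb, and at 3.13, 10.5, 6.22 and 10.4 CPM for Fgg. CDKO 1, 4 and 6 lay above every WT embryo for all 3 chains. The log2 fold changes were 0.30, 0.45 and 0.30, with SEs of 0.57, 0.47 and 0.59, and none passed (adjusted p = 0.69, 0.453 and 0.701, edgeR). F2 (prothrombin) averaged 2.73 ± 1.36 CPM in CDKO and 3.05 ± 1.75 CPM in WT, and F10 (factor X) 4.42 ± 2.59 CPM in CDKO and 3.36 ± 1.09 CPM in WT. Habp2, a plasma protease that binds hyaluronan, averaged 11.9 ± 3.47 CPM in CDKO and 7.36 ± 2.73 CPM in WT, and narrowly missed the threshold (log2 fold change 0.68, SE 0.29, adjusted p = 0.0627, edgeR). Its correlation with the mean of the other members was 0.73 over the 8 CDKO embryos and 0.67 over all 12. The annotated gene Nrap overlaps exons of Habp2, so reads there cannot be assigned with certainty. The trypsin inhibitor gene Spink3 averaged 34.6 ± 17.1 CPM in CDKO and 32.5 ± 11.5 CPM in WT.

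Vtn, which encodes vitronectin, a plasma and matrix adhesion protein, did not follow the other members. It stood at 4.15, 6.19, 6.19, 4.94, 4, 6, 8.15 and 5.54 CPM in CDKO 1 to 8, against 3.3, 5.67, 5.87 and 4.49 CPM in WT 1 to 4. CDKO 1, highest for most members, was among the lowest for Vtn, and CDKO 7 was the highest. Its correlation with the mean of the other members was -0.31 over the 8 CDKO embryos and 0.03 over all 12, the lowest of the 33 tested members, and Ambp had the next lowest over CDKO at 0.51.

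Tdo2, tryptophan dioxygenase, which starts the breakdown of tryptophan, was the called member. It stood at 12.8, 4.76, 4.51, 10.3, 5.13, 14.6, 8.67 and 3.24 CPM in CDKO 1 to 8, against 1.56, 3.6, 3.8 and 4.64 CPM in WT 1 to 4. CDKO 1, 2, 4, 5, 6 and 7 lay above every WT embryo, while CDKO 3 and 8 lay within the WT range. The log2 fold change was 1.22 with an SE of 0.44 (adjusted p = 0.0354, edgeR), that is 2.34-fold higher in CDKO. The call was lost when any of WT 1, WT 2, WT 3, CDKO 1, CDKO 4, CDKO 6 or CDKO 7 was left out, and over all alternatives the adjusted p ran up to 0.102. Trophoblast markers summed to 72.8 CPM in CDKO 6, the embryo with the highest Tdo2, against 20.7 to 37.2 CPM in the other CDKO embryos and 24.9 to 29.8 CPM in WT. Of 13 such markers, Plac1 was at 34.1 CPM in CDKO 6, against 3.2 to 9.04 CPM in the other CDKO embryos and 3.8 to 10.9 CPM in WT. Prl3d1 of trophoblast giant cells was at 7.23 CPM in CDKO 6, at 0 to 0.77 CPM in the other CDKO embryos and at 0 to 0.0997 CPM in WT. Not all were raised there, with Tfap2c (12.8 CPM), Elf5 (1.94 CPM) and Ascl2 (1.0 CPM) inside the range of the other CDKO embryos. CDKO 1 and CDKO 4, with Tdo2 at 12.8 and 10.3 CPM, had sums of 37.2 and 31.7 CPM. Tdo2 correlated with the mean of the other members at r of 0.91 over the 8 CDKO embryos. The part of trophoblast in the result was not tested.

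Per kilobase of exon, the scale on which levels of different genes can be compared, Apoa1, Apoe, Ttr, Afp and Rbp4 led the list in CDKO, at 156, 155, 147, 122 and 111 CPM per kilobase. In WT, Apoe, Ttr and Apoa1 led at 123, 120 and 112 CPM per kilobase, followed by Apoc2 at 88.2 and Rbp4 at 87.9, with Afp at 60.9. The embryo-to-embryo spread given above exceeds the steps between these neighbours. The long endocytic receptor genes were lower on this scale, with Cubn at 15.7 and Lrp2 at 10 CPM per kilobase in CDKO, against 21.2 and 12.8 in WT.

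Because most members moved together, each was also tested with the mean log2 CPM of the other tested members as a covariate, a fit added after seeing the data. A fold change in this fit is relative to the rest of the list at the same overall level, so changes in both directions are built into it. The SE of a member fell to a median of 0.14. In this fit 10 members were called higher and 8 lower in CDKO, and 15 were not called. These 18 are 54.5% of the 33, against 54.0% of all genes (28.0% higher and 26.0% lower) tested with the mean of the members as a covariate, so the share was close to that over all genes.

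Higher relative to the other members in CDKO were Tdo2 at a log2 fold change of 1.17, Spp2 at 1.06, Afp at 0.89 and Habp2 at 0.70, with adjusted p of 5.49e-05, 8.98e-06, 0.00182 and 0.00608 (edgeR). Smaller relative rises were called for the carriers Trf and Rbp4, for Fgb and for the apolipoproteins Apoa1, Apoa2 and Apoe, at 0.27 to 0.37. Lower relative to the other members were Apoc2 at -1.78, Apoa4 at -1.55, Slc2a2 at -0.94 and Cubn at -0.63, with adjusted p of 0.00253, 2.73e-05, 0.000135 and 0.00529 (edgeR). Apob, Abcc2, Lrp2 and Mttp were called at -0.48, -0.48, -0.41 and -0.35. Without WT 3, the count of calls was 10 (5 higher and 5 lower). Tdo2, Spp2, Afp, Habp2, Trf, Apoc2, Apoa4, Slc2a2, Cubn and Mttp kept their calls under all 15 alternatives run on this fit, none of which changed the genes that form the covariate. With the score of 6 core yolk sac genes as the covariate instead, the calls were 15 higher and 1 lower of 27 tested. There Tdo2 (1.43), Spp2 (1.35), Habp2 (0.85) and Trf (0.72) were still called higher and Slc2a2 (-0.48) lower, whereas Cubn (-0.20, adjusted p = 0.235), Lrp2 (-0.27, adjusted p = 0.137), Abcc2 (-0.10, adjusted p = 0.649) and Mttp (-0.07, adjusted p = 0.476, all edgeR) were not called and Amn (0.42) was called higher. That score is made up of Afp, Apoa4, Apob, Apoc2, Apoa1 and Ttr, which have no value under it. It thus includes Apoa4 and Apoc2, the members with the lowest fold changes. The fold changes named here all lay higher than with the mean of the other members. The balance of 15 higher and 1 lower is therefore partly set by the genes that form the covariate, on the high side as well as the low side. Without WT 3 the calls of Apoa1, Apoa2, Apob, Apoe, Abcc2, Lrp2, Rbp4 and Fgb were lost. All of these except Fgb were also lost without at least 1 other WT embryo, and Apoa1, Apoa2, Apoe, Lrp2 and Rbp4 without 1 or more of the CDKO embryos, where Apoa2 was lost without any of CDKO 1 and 3 to 8, Apoe without any of CDKO 3 to 6, Lrp2 without CDKO 3, 4, 6, 7 or 8, Rbp4 without CDKO 3, 6 or 7, and Apoa1 without CDKO 8.

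**Figure D3:**
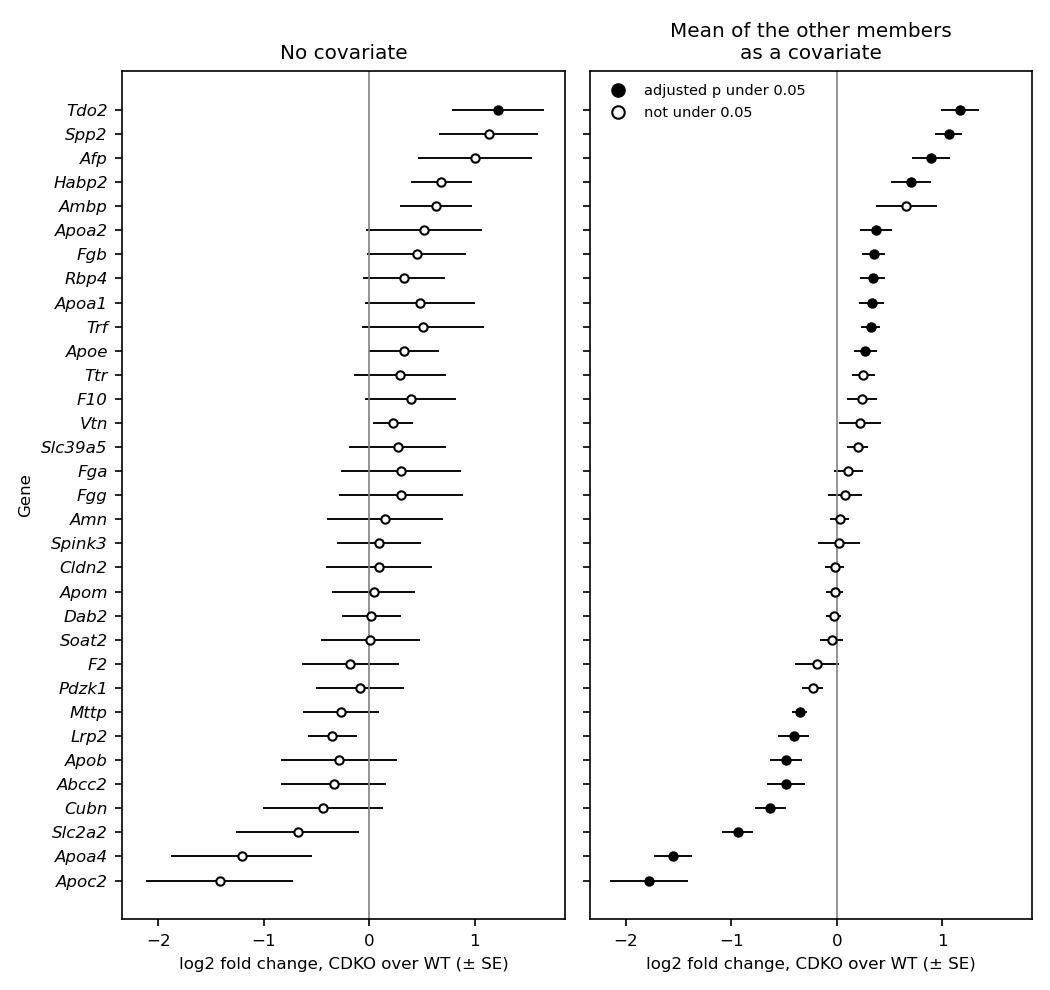
Log2 fold change of CDKO over WT with its SE for the 33 tested members, without a covariate (left) and with the mean of the other members as a covariate (right). Filled points have an adjusted p under 0.05. Bars are wide on the left, where Tdo2 is the 1 filled point, and 18 points are filled on the right, with Tdo2 at the top and Apoc2 at the bottom.

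Pairs of members near each other in the genome, called neighbouring here although not always adjacent, were compared within an embryo, which needs no covariate. These 5 pairs were chosen after their values were seen, and Apoa4 and Apoc2 had the lowest fold changes of the list. The p-values below are therefore a description of picked pairs, and adjustment over 5 pairs does not cover that choice. On chromosome 9, the ratio of Apoa4 to Apoa1 was 0.168, 0.099, 0.21, 0.26, 0.0943, 0.118, 0.105 and 0.0772 in CDKO 1 to 8, against 0.335, 0.616, 0.38 and 0.545 in WT 1 to 4. On chromosome 7, the ratio of Apoc2 to Apoe was 0.122, 0.0188, 0.0484, 0.0908, 0.107, 0.109, 0.0296 and 0.0363 in CDKO 1 to 8, against 0.182, 0.278, 0.215 and 0.355 in WT 1 to 4. Every CDKO embryo was below every WT embryo in both ratios, including CDKO 1, 4 and 6, whose absolute levels of these genes overlapped those of WT. Among single genes, 34.7% of all tested stood apart without overlap, and the share over other pairs of genes was not computed. On the log2 scale the Apoa4 to Apoa1 ratio differed by -1.80, CDKO minus WT, in a two-sided exact permutation test over 495 splits (p = 0.00202, the smallest it can give, adjusted over the 5 pairs 0.0101). The Apoc2 to Apoe ratio differed by -2.11 (exact permutation p = 0.00404, adjusted 0.0101). The annotated genes Gm10680 and Gm47528 overlap exons of Apoa4, and Gm44805 overlaps those of Apoc2, so reads at these overlaps cannot be assigned with certainty.

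The fibrinogen chains, which must be made together to form the protein, served as the other neighbouring members, on chromosome 3. The ratio of Fga to Fgb was 0.358 to 0.755 in CDKO, against 0.626 to 0.807 in WT. The ratio of Fga to Fgg was 1.07 to 1.44 in CDKO, against 1.17 to 1.25 in WT, and that of Fgb to Fgg was 1.57 to 3.67 in CDKO, against 1.54 to 1.91 in WT. All 3 ratios overlapped between the groups and none passed (exact permutation, adjusted p = 0.273, 0.665 and 0.273, with log2 differences of -0.24, 0.04 and 0.28).

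**Figure D4:**
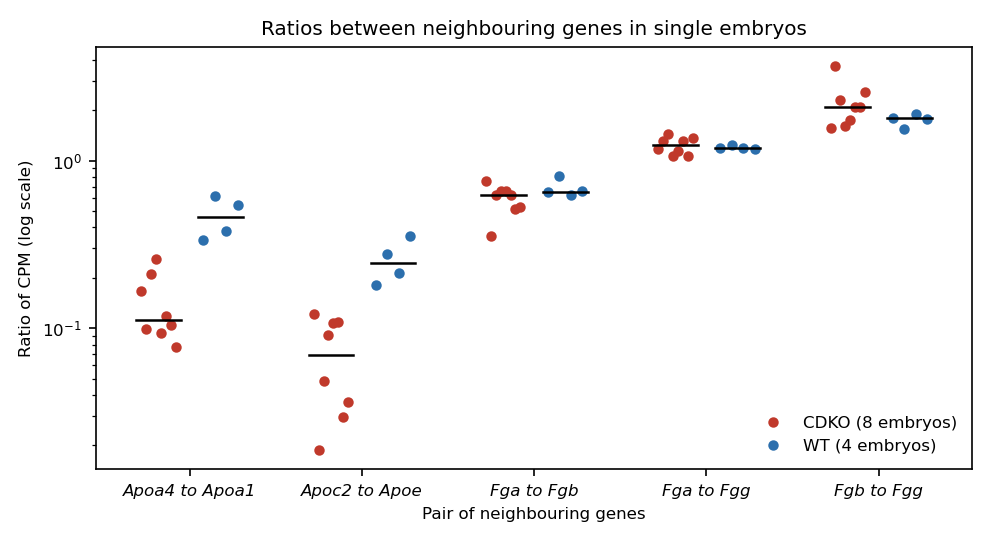
Ratio of CPM on a log axis for 5 pairs of neighbouring members, with 1 point per embryo, CDKO left of WT, and a line at the median. The CDKO and WT points stand apart for Apoa4 to Apoa1 and for Apoc2 to Apoe, and overlap for the fibrinogen pairs.

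The targeted genes were read in the same embryos. Tgif1 was at 6.2 ± 0.528 CPM in CDKO (SD, n = 8) and 60.9 ± 2.52 CPM in WT (SD, n = 4), with every CDKO embryo below every WT embryo. Tgif2 was at 84.4 to 116 CPM in CDKO, against 85.7 to 88.5 CPM in WT, so its transcript was not lower in the embryos labelled null for it, and which exons the allele lacks is not stated in the sources used here. The small remaining Tgif1 signal, 944 counts over the 8 CDKO embryos, was set beside Afp. Its SD between these embryos, 0.528 CPM, was no larger than the 0.574 CPM that counting error alone gives at 101 to 144 counts per embryo (chi-square per degree of freedom 0.888), so no relation with Afp is read from the values that follow. Tgif1 was 5.5, 6.86, 5.84, 5.77, 6.67, 6.06, 6 and 6.87 CPM in CDKO 1 to 8, and the embryos with the 3 highest values, CDKO 2, 5 and 8, had the 3 lowest levels of Afp. Pearson's r on log2 CPM was -0.87 (exact permutation p = 0.00784, adjusted over 2 relations 0.0157) and Spearman's rho was -0.81 (exact permutation p = 0.0218). Without CDKO 2 and CDKO 8, the embryos farthest from the median of Tgif1, r was -0.85.

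Afp was set beside Hbb-bh1, an embryonic globin of the red cells that form in the yolk sac, in the same way. Hbb-bh1 stood at 423, 9.05, 88.5, 67.8, 92.8, 140, 286 and 457 CPM in CDKO 1 to 8, against 332, 493, 415 and 353 CPM in WT 1 to 4. The 8 CDKO embryos gave r of 0.45 (exact permutation p = 0.269) and rho of 0.24 (exact permutation p = 0.582), and r was 0.41 without CDKO 2 and CDKO 8. CDKO 8 had the highest Hbb-bh1 of the CDKO embryos and low yolk sac endoderm genes, while CDKO 4 had low Hbb-bh1 and high yolk sac endoderm genes. In contrast, CDKO 1 was high in both (Afp 841 CPM), and CDKO 2 was low in both (Afp 161 CPM). Of 10 primitive red cell markers tested, 0 passed by edgeR, against 51.5% of all genes, and Klf1 had an unadjusted p under 0.05. Their median log2 fold change was -1.02, against 0.01 over all genes tested, and Hbb-y (0.56) was the only marker above 0. The SEs of these fold changes were wide, at 0.46 to 0.84. The red cell markers summed to 38 to 1728 CPM in CDKO, against 815 to 1363 CPM in WT, with the globins Hba-a1 and Hba-a2 listed at 0 in all 12 embryos.

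**Figure D5:**
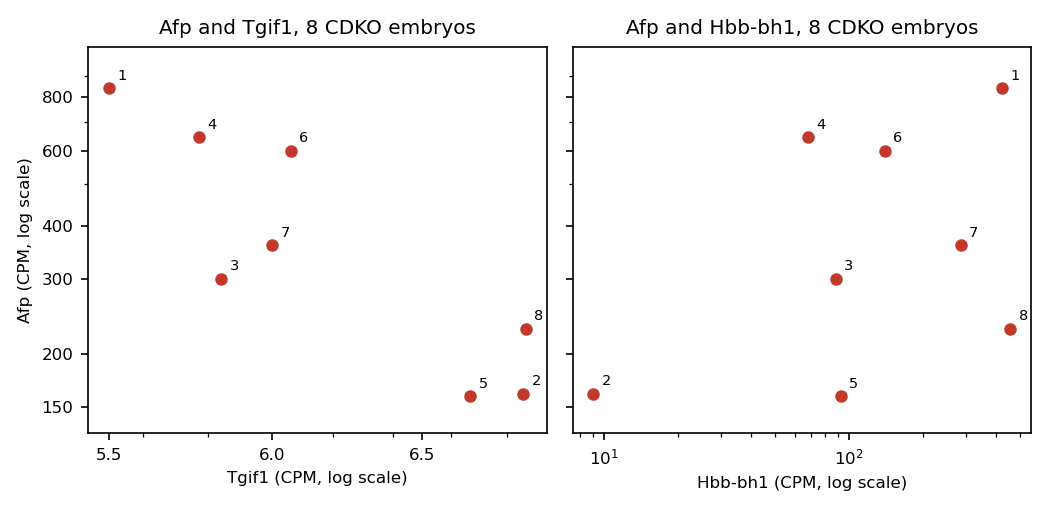
Afp against Tgif1 (left) and against Hbb-bh1 (right) in the 8 CDKO embryos, numbered, in CPM on log axes. CDKO 1 lies at the upper left and CDKO 2, 5 and 8 at the lower right for Tgif1, whose SD of 0.528 CPM is within the 0.574 CPM of counting error, and no such order is seen with Hbb-bh1.

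Transcription factors of endoderm and liver were read as the upstream part of the pathway. Of 18 tested, 5 were called, all higher in CDKO. Gata6 was at 89.7 ± 11.7 CPM in CDKO and 43.5 ± 11.1 CPM in WT (log2 fold change 1.04, SE 0.15, adjusted p = 8.76e-05, edgeR), and Gata4 at 77.8 ± 13.9 CPM in CDKO and 45.5 ± 11.6 CPM in WT (log2 fold change 0.77, SE 0.18, adjusted p = 0.00283, edgeR). These zinc finger factors specify extraembryonic endoderm and are also factors of heart and gut. The other 3, with log2 fold changes in parentheses, were the coactivator gene Ppargc1a (0.72), the nuclear receptor gene Nr5a2 (0.55) and Cebpa (0.80), at low levels. Hnf4a, a nuclear receptor known for driving apolipoprotein genes, did not pass, at 27 ± 15.1 CPM in CDKO and 29.3 ± 13 CPM in WT. Foxa1, Foxa2 and Foxa3 did not pass either (log2 fold changes -0.22, 0.03 and 0.78, adjusted p = 0.108, 0.886 and 0.0548, edgeR). Over the 12 embryos, Hnf4a correlated with the mean of the members at r of 0.98, Foxa1 at 0.51, Foxa2 at 0.74 and Foxa3 at 0.56. The called factors did not follow that mean closely, with r of 0.35 for Gata4, 0.25 for Gata6, 0.02 for Nr5a2, -0.21 for Ppargc1a and -0.28 for Cebpa. With WT 1 and CDKO 2 left out, 3 of the factors were called.

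Other genes of lipid transport split in both directions, with 9 higher and 4 lower of 32 tested. The receptors Vldlr and Lrp8 were higher in CDKO, Vldlr at 58.8 ± 13.8 CPM in CDKO and 23.9 ± 3.75 CPM in WT (log2 fold change 1.30, SE 0.19, adjusted p = 9.69e-05, edgeR). Lrp8 rose by 0.63 and the lysosomal sterol carrier Npc2 by 0.71, both on the log2 scale. Of 32 other uptake genes tested, 8 were higher and 6 lower, among them, again with log2 fold changes, the megalin chaperone Lrpap1 (0.85), the clathrin adaptor subunit Ap2m1 (0.70) and the early endosome GTPase Rab5a (-0.40). Of 21 other coagulation and plasma protein genes tested, 9 were called, all higher, among them F3 (tissue factor, 0.45), Tfpi (its inhibitor, 0.64), Serpind1 (heparin cofactor, 1.93) and Itih2 (2.85). Itih2 was at 2.27 ± 1.56 CPM in CDKO and 0.302 ± 0.186 CPM in WT, so the plasma protein genes with the highest fold changes were at low levels. The shares called in either direction were 27.8% to 43.8% in these 4 lists, against 51.5% of all genes. Counted by direction, all calls of the transcription factors (27.8%) and of the plasma protein genes (42.9%) were higher, against 26.6% of all genes called higher. Many of these genes are used well beyond the yolk sac.

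Marker lists of neighbouring tissues differed in how many of their genes were called, where 51.5% of all genes were called and 26.6% were called higher. Of 11 parietal endoderm markers tested, 8 were called (72.7%), all higher in CDKO, and the list summed to 2262 to 2990 CPM in CDKO, against 1884 to 2116 CPM in WT. Sparc, a matrix protein used by many mesenchymal cells too, was at 494 ± 61 CPM in CDKO and 265 ± 22.6 CPM in WT. Of 9 markers of yolk sac mesoderm and amnion, 3 were called (33.3%), all higher, and the list summed to 521 to 1053 CPM in CDKO, against 301 to 466 CPM in WT. These were Hand1 (1.27 on the log2 scale), Postn (2.42) and Bmp4 (0.59), which are also genes of heart and lateral mesoderm. Of 15 embryonic gut markers, 4 were higher and 3 lower (46.7%). Higher on the log2 scale were Pyy (1.12), Krt8 (0.77), Nepn (0.71) and Krt18 (0.51). Lower were Trh (-0.72), Shh (-0.64) and Epcam (-0.27), with Shh at 13.8 ± 2.15 CPM in CDKO and 21.5 ± 2.24 CPM in WT. Of 6 trophoblast markers tested 0 passed by edgeR, and 0 had an unadjusted p under 0.05. The part of these tissues in the members' levels was not tested.

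Outside the list, 11093 genes had a mean of at least 5 CPM, and the 10 whose log2 CPM was most like the mean of the members over 12 embryos were taken, of which 9 are named. Rbm47, an RNA-binding partner in editing of Apob mRNA, came first at r of 0.99, and among the next were Reep6, the microvillar gene Vil1 and Hnf4a. The rest were 4933402E13Rik, the calcium-binding gene S100g, Sigirr, the dicarboxylate transporter gene Slc13a3 and the lysosomal protease gene Ctsb. Of these 10 genes 0 were called between the genotypes by edgeR, against 51.5% of all genes, and 0 had an unadjusted p under 0.05. Their log2 fold changes ran from -0.12 for Hnf4a to 0.38 for 4933402E13Rik. The genes were chosen for varying like the members, of which 3.03% were called, so this count is no separate result. In all, 54 genes reached r of 0.9 over 12 embryos.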

How the data were processed

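The table holds the authors' deposited raw counts of reads per gene symbol, with 1 column per embryo and 0 columns of no sample. The submitters' processing notes name FastQC, STAR, featureCounts, DESeq2 and the build mm9. The sources used here state no versions, annotation or strand setting. Per the labels, libraries were poly-A selected and read as pairs of 50 bases. The 34 members with a row were chosen with earlier results of these data known, and so were the 4 lists of other pathway genes and the 5 marker lists.

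The 8 CDKO and 4 WT embryos were compared with the quasi-likelihood F test of edgeR 4.0.16 (R 4.3.3), using TMM scaling, filterByExpr by group and robust dispersions, without a covariate. Benjamini-Hochberg adjustment ran over 14412 genes, with a threshold of 0.05. An SE is the size of the log2 fold change over the square root of F. Values in CPM carry TMM scaling, and log2 CPM used a prior count of 2. Nothing says whether embryos shared a litter, so p-values measure the spread between these embryos. No pair of libraries within a group agreed within sampling noise (lowest chi-square per degree of freedom 3.89). Each member was also fitted with the mean log2 CPM of the other tested members as a covariate, and ratios of neighbouring members were tested by exact permutation (scipy 1.17.1), both added after seeing the data. On simulated counts for the 14412 genes the genotype test found 59 of the 75 genes given a 1.5-fold change. At 2-fold it found 54 of 64, at 4-fold 60 of 61, and 6 of its 179 calls were false. The changed genes were drawn at random from all genes tested, and far fewer were changed than the 51.5% called in the data. In the data the SE had a median of 0.09 over all genes and 0.47 over the members. These counts therefore do not show how often a change in a member would be found. The covariate test recovered 10 of 10 members changed by 2-fold among 33 and called 0 unchanged. In that simulation every member followed the shared level equally, with the median dispersion of all genes and as many rises as falls. Real members followed it unequally (r of -0.31 to 0.99 over the 8 CDKO embryos), so the result does not show how the test performs on them.

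Exon lengths are from GENCODE M21 on GRCm38, so values per kilobase are approximate for a table made on mm9. Start sites and sequences are from RefSeq on GRCm38.p6. No member had a near-identical copy (200 bases at 95% identity, BLAST 2.17.0). Exons of Apoa4, Apoc2, Cubn, Dab2, Trf, Fgg, Mttp, Pdzk1 and Habp2 overlap other annotated genes, among them Trmt10a for Mttp and Nrap for Habp2. Alternatives were RLE scaling, DESeq2 1.42.0, limma-voom 3.58.1 with sample quality weights, other count filters, each embryo left out, WT 1 and CDKO 2 left out together, a score of 6 core yolk sac genes or Xist as a covariate, and the 50 most abundant genes left out. Named genes are all members, up to 4 called genes with the lowest p per other list, the 10 genes most like the members with a mean of at least 5 CPM, Tgif1 and Tgif2. Some genes that this rule names are left out of the text. Apoa4, Apoc2, the genes near the threshold, the neighbour ratios and single markers were chosen after their values were seen.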

Additional observations from a re-analysis of the deposited data

Results flagged for a closer look

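In 3 of 130 groups of values looked at, or 2.31%, 1 embryo stood far from the others of its genotype, where chance gives about 5%. WT 1 was at 0.811 CPM for Ambp, against 2.44 to 2.88 CPM in the other WT embryos. It was also at 1.39 CPM for Slc13a3, against 5.22 to 6.28 CPM. CDKO 7 was at 3.2 CPM for Nr5a2, against 2.05 to 2.43 CPM in the other CDKO embryos.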

How the results depend on the processing

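The number of embryos and their spread limit the genotype comparison, and depth limits Alb, with 22 counts in CDKO and 1 in WT. Of the 33 members, 1 was called without a covariate, and DESeq2 called 3, limma-voom with sample quality weights 6, no count filter 0, WT 1 and CDKO 2 left out 0, and the core yolk sac endoderm score as a covariate 16. Of these 16, 15 were higher, under a covariate that includes Apoa4 and Apoc2, the members with the lowest fold changes. Leaving out each embryo in turn gave 0 to 3. With the mean of the other members as a covariate, where 18 were called, it gave 10 to 18. The median log2 fold change of the members ran from -0.12 to 0.42. Of the endoderm transcription factors, 3 were called with WT 1 and CDKO 2 left out. The cause was not tested for these.

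Log2 fold changes that turned sign were of members that did not pass. With limma-voom and sample quality weights these were Apom (-0.20), Amn (-0.18), Dab2 (-0.16), Fga (-0.09), Fgg (-0.12), Spink3 (-0.18), Cldn2 (-0.28), Soat2 (-0.26) and Slc39a5 (-0.01). With WT 1 and CDKO 2 left out they were Apom (-0.13), Amn (-0.03), Dab2 (-0.09), Spink3 (-0.10), Cldn2 (-0.07) and Soat2 (-0.18), and with the core score as a covariate Pdzk1 (0.08) and F2 (0.15). Leaving out each embryo gave -0.15 to 0.41 for Amn, -0.20 to 0.25 for Apom, -0.19 to 0.32 for Cldn2, -0.15 to 0.19 for Dab2, -0.50 to 0.12 for F2, 0.00 to 0.50 for Fgg, -0.32 to 0.07 for Pdzk1, -0.26 to 0.28 for Soat2 and -0.12 to 0.29 for Spink3. With the mean of the other members as a covariate the same gave -0.02 to 0.10 for Amn, -0.07 to 0.02 for Apom, -0.06 to 0.02 for Cldn2, -0.09 to 0.01 for Dab2, 0.00 to 0.22 for Fga, -0.02 to 0.17 for Fgg, -0.12 to 0.01 for Soat2 and -0.14 to 0.08 for Spink3. In that fit, WT 1 and CDKO 2 left out gave Amn -0.02 and Spink3 -0.07, and limma-voom with sample quality weights gave Spink3 -0.04. With each embryo left out, and with WT 1 and CDKO 2 left out, the log2 ratio of Apoa4 to Apoa1 differed by -1.95 to -1.66, CDKO minus WT, and the log2 ratio of Apoc2 to Apoe by -2.26 to -1.87. No paired analysis was possible because the labels give the embryos no replicate numbers, and numbers in sample order pair nothing.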
